A study of Mus musculus with 10 samples.

Results

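Blood vessels, lymphatic vessels and the contractile cells that wrap them were followed in mouse mammary tissue through 34 genes, taken as a named list of cell type genes and matched by symbol to the Ensembl identifiers of the count data. The 34 are among 46983 genes counted, and all 34 had enough reads to be tested. They comprise 19 genes of blood endothelium, 4 of lymphatic endothelium, 6 of pericytes and 5 of smooth muscle. The study asked whether a higher folic acid (FA) intake leaves a lasting trace in the mammary transcriptome. Virgin female C57BL/6 mice ate a control diet (CFA, 1 mg FA/kg) or a high FA diet (HFA, 5 mg FA/kg), then all ate one maintenance diet, and were sampled on PND 130. The right thoracic mammary fat pads were taken whole, so a library holds the epithelium, the fat, the vessels and any muscle or lymph node excised with them. Each group has 5 libraries, 1 per mouse, named here by their titles: T1224, T1234, T1314, T1324 and T1334 for CFA, and T2214, T2224, T2234, T2314 and T2334 for HFA.

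Endothelial cells line vessels and hold together through junction proteins such as VE-cadherin. They grow and mature in response to VEGF and angiopoietin receptors, and arterial cells among them are specified through Notch and its ligand Dll4. Endothelial PDGF-B recruits pericytes, which carry its receptor, and smooth muscle cells add a contractile layer to larger vessels. In the mammary gland several of these contractile genes are also used by the myoepithelial cells that surround ducts and alveoli.

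Between 7672199 and 14829291 reads per library fell on genes. Values are counts scaled to the library total by TMM (CPM), and differences as log2 fold changes of HFA minus CFA with their SE and the Benjamini-Hochberg adjusted p of edgeR's quasi-likelihood test over 15610 genes. The HFA library T2334 stood apart, with a median correlation to the other libraries of 0.798 against 0.918 to 0.970 for the rest. The 3 libraries T1234, T1334 and T2334 carried RNA of lymphocytes, with 8 B cell markers summing to 353, 939 and 2729 CPM against 3.90 to 5.68 CPM elsewhere. Markers of fat and of luminal and basal epithelium were present in all 10 libraries, with sums of at least 11692, 354 and 168 CPM. Those of heart muscle summed to at most 3.66 CPM, with *Nppa* at 0.

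All 34 genes overlapped between the diets. Of all genes tested, only 0.75% had every HFA library above every CFA library and 0.243% had every one below. At an adjusted p below 0.05, 0 of 34 differed, as did 0% of all genes tested. This departs from the paper, whose edgeR model also held cage and which reported differentially expressed transcripts at an FDR below 0.05. The reason for the departure was not tested. The smallest adjusted p among the 34 was 0.655. By edgeR's likelihood ratio test, DESeq2 and limma voom 0 of 34 passed as well, beside 33, 60 and 0 of all 15610 genes. All endothelial genes but *Vwf* stayed within a 3.16-fold range over the 10 mice, whereas the smooth muscle genes differed up to 25.1-fold and the lymphatic genes up to 29.9-fold. At an unadjusted p below 0.05, 3 of 34 genes differed, beside 7.36% of all genes tested. *Lyve1* was the 1 that was higher in HFA, beside 3.87% of all genes, and *Pdgfb* and *Tagln* were the 2 that were lower, beside 3.49%. In bulk tissue, fewer cells of a type and less RNA per cell cannot be told apart.

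**Figure D1:**
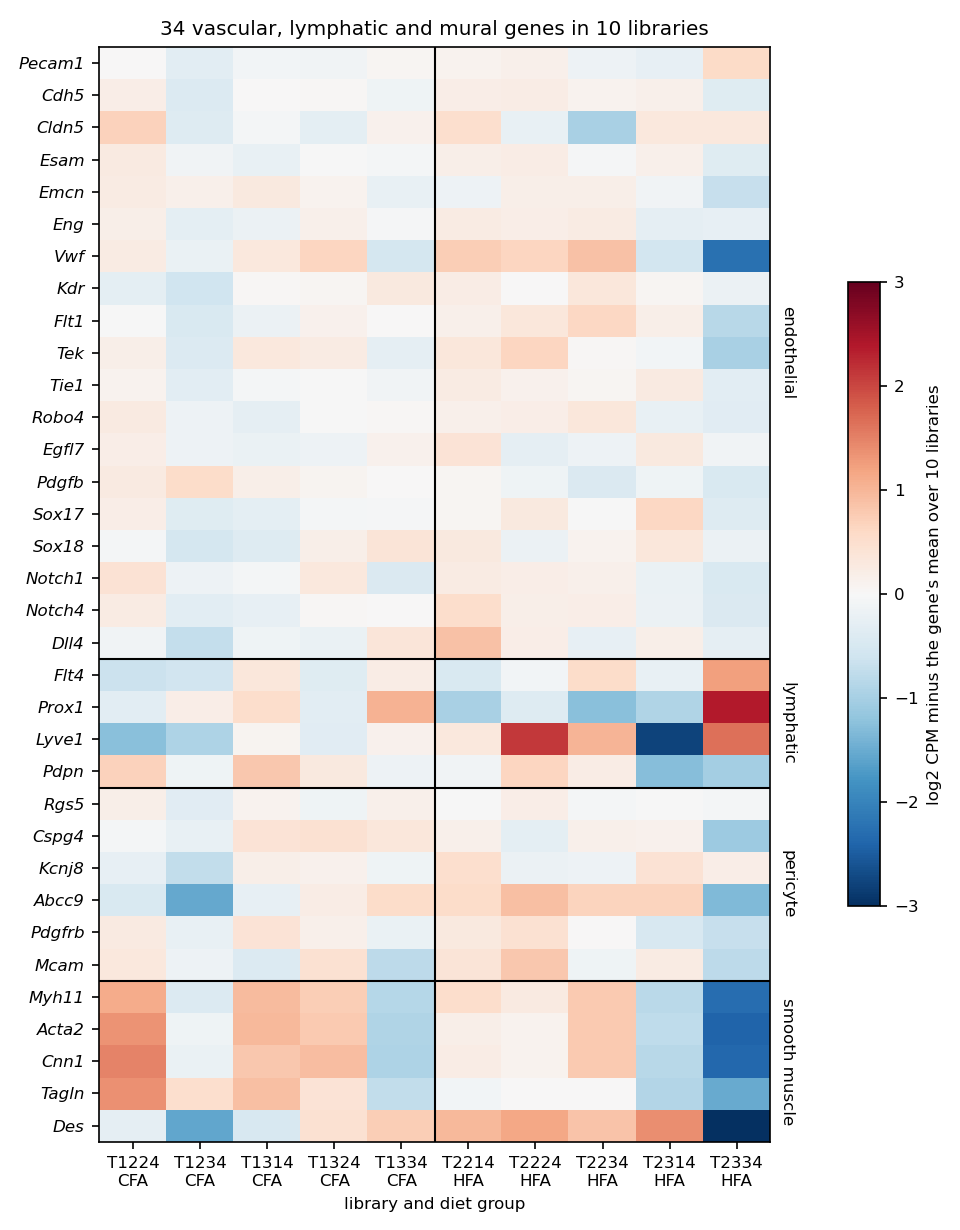
Log2 CPM of each gene (rows, by cell type) minus its mean over the 10 libraries (columns, by diet), red above and blue below that mean. The endothelial rows are pale except *Vwf*, the smooth muscle rows other than *Des* run from red in T1224 to blue in T2334, and *Prox1* and *Flt4* are highest in T2334.

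Variation between mice was described by the SD of log2 CPM over the 10 libraries. Its median was 0.30 for the endothelial genes (0.20 to 0.93), 0.42 for the pericyte genes (0.16 to 0.86), 0.87 for the lymphatic genes (0.58 to 1.42) and 1.11 for the smooth muscle genes (0.86 to 1.45), beside 0.39 for all genes tested. Of the 19 endothelial genes, 12 stayed within a 2-fold range over all mice, as did 1 of 6 pericyte genes and 0 of the 9 others. T2334 gave the lowest value of 18 of the 34 genes and T1234 that of 9.

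Among the endothelial genes, junction and surface proteins had the highest levels per exon length. *Cdh5* (chr8:104101625-104144511, GRCm38), which encodes VE-cadherin, led them with a mean level of 34.9 CPM per kb. It was measured at 167, 109, 146, 149.9 and 133 CPM in CFA and 166, 168, 155, 161 and 112 CPM in HFA. The lowest was T1234 in CFA and T2334 in HFA, and the other 8 libraries lay close together. *Pecam1*, the adhesion molecule CD31 (28.0 CPM per kb), had 172, 139, 163, 159 and 179.5 CPM in CFA and 186, 190.5, 154, 144 and 255 CPM in HFA. T2334, the lowest HFA library for *Cdh5*, was the highest of all for *Pecam1*, and its ratio of *Pecam1* to *Cdh5* was 2.27 against 0.896 to 1.35 in the others. CD31 is also carried by lymphocytes, macrophages and platelets. *Eng*, which encodes the TGF-beta co-receptor endoglin (25.3 CPM per kb), had 115, 82.7, 90.2, 113 and 98.3 CPM in CFA and 119.6, 116, 121, 84.6 and 85.1 CPM in HFA, with both groups spread over the same range. *Cldn5*, the tight junction claudin of endothelium (25.5 CPM per kb), varied more, with 55.1, 26.3, 32.7, 27.9 and 37.8 CPM in CFA and 48.7, 29.4, 17.5, 42.4 and 42.7 CPM in HFA. Its lowest library was T2234 and its highest T1224. The log2 fold changes of these 4 genes lay between 0.01 (*Cldn5*, SE 0.29) and 0.20 (*Pecam1*, SE 0.16), the latter 0.01 without T2334. *Esam*, another junction protein, ranged from 41.2 to 64.0 CPM, and the sialomucin *Emcn* from 17.0 to 33.7 CPM.

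Some endothelial genes kept a steady ratio to each other and others did not. In CPM, the ratio of *Cdh5* to *Tie1* stayed between 2.46 and 2.84 in all 10 libraries, an SD of 0.08 on the log2 scale and the smallest of *Cdh5* with any of the 33 other members. The ratio of *Eng* to *Robo4* had an SD of 0.10, and the ratios of *Pecam1* and of *Vwf* to *Cdh5* had SDs of 0.37 and 0.80. By the same measure *Pdgfb* had no partner among the 34 closer than *Emcn*, at 0.30. *Vwf* had none among the 34 closer than the smooth muscle gene *Myh11*, at 0.42. Of all listed genes, the fibroblast gene *Dcn* (0.32) and the mural gene *Ednra* (0.34) were closest to *Vwf*.

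Receptors for the vessel growth factors were measured at 6.23 to 11.5 CPM per kb. *Kdr*, the main signalling receptor for VEGF-A, ranged from 67.2 CPM (T1234) to 129.6 CPM (T2234). *Flt1*, a VEGF receptor that also acts as a decoy, ranged from 45.9 CPM (T2334) to 126 CPM (T2234) and had a log2 fold change of 0.25 (SE 0.23, adjusted p = 0.813). Without T2334 the *Flt1* value was 0.38 at an unadjusted p of 0.0226, in a comparison in which 6 of the 34 and 25.8% of all genes were below 0.05. *Tek*, the angiopoietin receptor Tie2, ranged from 23.2 CPM (T2334) to 71.9 CPM (T2224), and its relative *Tie1* only from 43.3 to 65.7 CPM. *Robo4*, a stabilising guidance receptor, ranged from 31.3 to 49.9 CPM, and *Egfl7*, a secreted endothelial factor, from 37.1 to 59.3 CPM. None of these 6 had an adjusted p below 0.796.

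*Vwf* (chr6:125546774-125686679), which encodes the clotting protein von Willebrand factor, was the endothelial gene that differed most between mice. It had 116, 85.3, 121, 153 and 67.8 CPM in CFA and 162, 153, 179.8, 67.0 and 20.7 CPM in HFA. T2334 was lowest by a wide margin, T2314 and T1334 came next, and the highest 2 values were also HFA, so that the HFA group enclosed the CFA group. The ratio of *Vwf* to *Cdh5* ran from 0.185 in T2334 to 1.16 in T2234. For *Vwf* the log2 fold change was 0.10 (SE 0.49, adjusted p = 0.966), and 0.33 without T2334.

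The transcription factors and Notch genes of endothelium were lower in level. *Sox17*, an arterial transcription factor (2.64 CPM per kb), had 14.1, 9.54, 10.1, 11.8 and 11.9 CPM in CFA and 12.8, 15.1, 12.2, 19.1 and 9.36 CPM in HFA, with T2314 highest and T2334 lowest. *Dll4*, the arterial Notch ligand (2.68 CPM per kb), had 9.27, 6.03, 9.10, 8.60 and 12.7 CPM in CFA and 18.3, 11.4, 8.37, 11.2 and 8.27 CPM in HFA. Only T2214 exceeded the CFA range of *Dll4*, and its log2 fold change was 0.33 (SE 0.26, adjusted p = 0.785), the largest positive value among the 19. *Sox18*, a factor of vessel and lymphatic development, ranged from 13.6 to 25.5 CPM. The Notch receptor genes *Notch1* and *Notch4* ranged from 54.8 to 102 CPM and from 16.5 to 32.1 CPM. *Notch1* is also used by epithelium and lymphocytes.

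*Pdgfb* (chr15:79995874-80014977), the endothelial growth factor that recruits pericytes, had the smallest unadjusted p of the 34. It was measured at 41.4, 50.9, 39.2, 36.4 and 35.1 CPM in CFA and 35.9, 31.6, 25.8, 31.8 and 25.1 CPM in HFA. All 5 HFA libraries lay below the CFA mean, and the groups overlapped by 1 HFA library (T2214) that exceeded the lowest CFA library (T1334). Means were 40.6 ± 6.26 CPM for CFA and 30.0 ± 4.52 CPM for HFA (SD, n = 5 each). This gave a log2 fold change of −0.43 (SE 0.15), with an unadjusted p of 0.0130 and an adjusted p of 0.655 by the quasi-likelihood test. With 1 library left out in turn it stayed between −0.51 and −0.39. *Pdgfrb*, the receptor, had 63.5, 45.7, 70.3, 59.0 and 46.0 CPM in CFA and 64.8, 72.7, 53.6, 38.3 and 32.8 CPM in HFA, and the groups covered the same range (log2 fold change −0.12, SE 0.23).

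**Figure D2:**
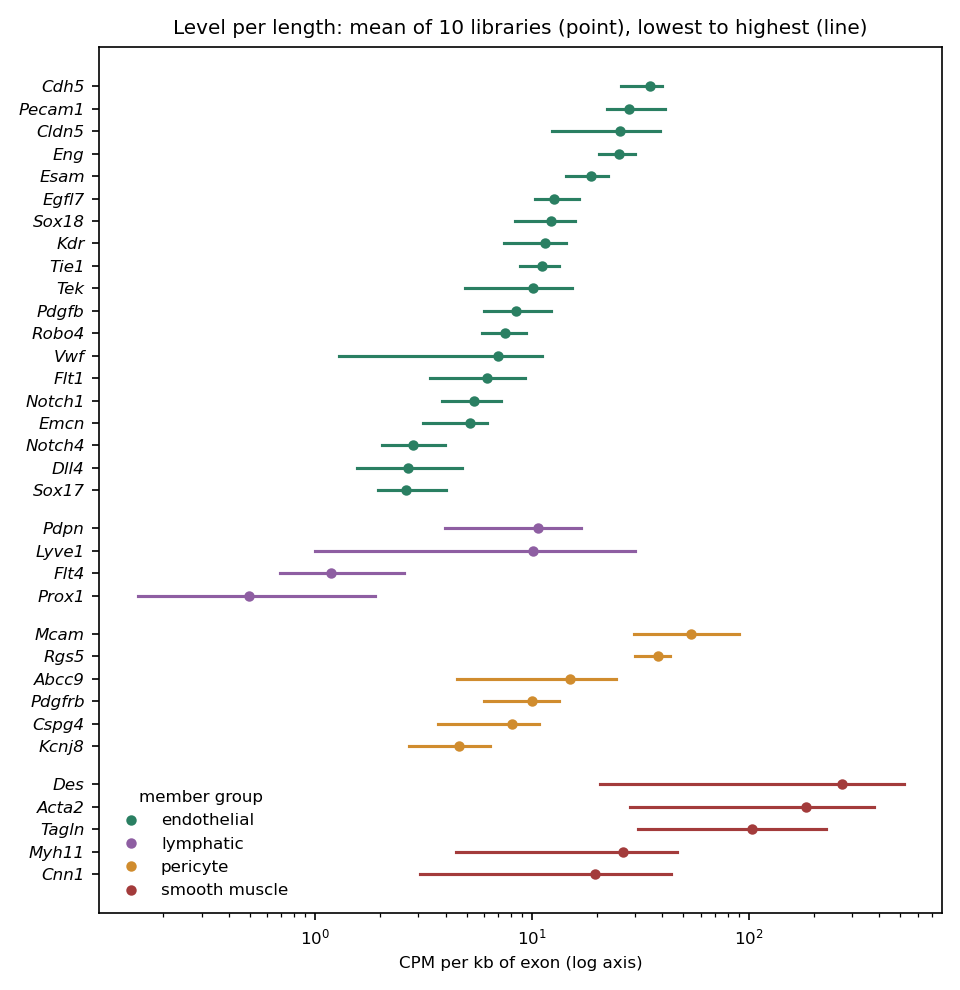
Mean level of each gene in CPM per kb of exon (points, log axis), with lines from the lowest to the highest of the 10 libraries and colours for the 4 cell types. *Des*, *Acta2* and *Tagln* had the highest means (268, 184 and 103 CPM per kb) and *Prox1* the lowest (0.497 CPM per kb).

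The 4 lymphatic genes did not share an order of libraries. *Prox1* (chr1:190118035-190170714), the transcription factor that specifies lymphatic endothelium, had 2.47, 3.51, 4.42, 2.46 and 6.27 CPM in CFA and 1.55, 2.33, 1.28, 1.65 and 15.8 CPM in HFA. T2334 stood far above the rest, and the other 4 HFA libraries all lay below the lowest CFA library. The log2 fold change was 0.27 (SE 0.71, adjusted p = 0.935) with T2334 and −1.19 (SE 0.34, adjusted p = 0.0992) without it. *Flt4*, the VEGF-C receptor of lymphatic endothelium (1.18 CPM per kb), had 5.70, 6.03, 11.3, 7.01 and 10.5 CPM in CFA and 6.53, 8.54, 13.1, 7.68 and 21.1 CPM in HFA. T2334 was again highest, and the log2 fold change was 0.49 (SE 0.35, adjusted p = 0.768) with it and 0.09 without it. The lowest count behind any value of the 34 genes was 9 reads, for *Prox1*.

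*Glycam1*, a ligand made by the high endothelial venules through which lymphocytes enter nodes, had 275, 519 and 733 CPM in T1234, T1334 and T2334 and at most 1.22 CPM in the other 7, and is singled out with its values known. Of the other 5 genes listed for these venules, *Chst4*, *Fut7*, *Madcam1* and *Enpp2* were also highest in T2334, at 5.54, 7.002, 6.24 and 356 CPM, whereas *Ackr1* was lowest there, at 6.36 CPM of a range up to 12.2 CPM. In the order T1234, T1334, T2334 the *Prox1* values were 3.51, 6.27 and 15.8 CPM, beside 1.28 to 4.42 CPM elsewhere. The sums of 8 T cell markers in that order were 173, 403 and 955 CPM, beside 6.58 to 15.7 CPM elsewhere. T1314, with 4.42 CPM of *Prox1*, exceeded T1234 at a T cell sum of 14.2 CPM. *Flt4* in T1234, at 6.03 CPM, was near its lowest value of 5.70 CPM. With lymphocyte markers (B and T) entered into the fit, the log2 fold change of *Prox1* was −0.15 (SE 0.37, adjusted p = 0.892), against 0.27 without it, and that of *Flt4* 0.47 (SE 0.28, adjusted p = 0.474), against 0.49. With the 3 libraries left out, a fit added after the values were seen, *Prox1* had a log2 fold change of −0.86 (SE 0.33, adjusted p = 0.168).

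*Lyve1* (chr7:110850607-110863239), a hyaluronan receptor of lymphatic endothelium and of some tissue macrophages, had the widest range of the 34, 29.9-fold. It was measured at 8.38, 10.5, 21.4, 15.8 and 21.8 CPM in CFA and 24.8, 87.4, 40.7, 2.93 and 62.8 CPM in HFA. In 4 of the 5 HFA libraries it exceeded every CFA library, and in the fifth, T2314, it was the lowest of all 10. The means were 15.6 ± 6.12 and 43.7 ± 32.8 CPM (SD, n = 5 each). This gave a log2 fold change of 1.49 (SE 0.66), with an unadjusted p of 0.0472 and an adjusted p of 0.670 by the quasi-likelihood test. It ran from 1.07 without T2224 to 1.79 without T2314. Macrophage markers had their highest sum in the same library as *Lyve1* (T2224, 945 CPM) and their lowest in the same library (T2314, 99.3 CPM). In the other 8 they summed to 231 to 487 CPM, and there the order was not that of *Lyve1*. T2334, with 62.8 CPM of *Lyve1*, had a sum of 376 CPM, and T1314, with 21.4 CPM, one of 389 CPM. The ratio of *Lyve1* to the macrophage gene *Mrc1* ran from 0.107 in T2314 to 0.769 in T2334. Of all genes on the lists compared, the macrophage genes *Cd68*, *Itgam* and *Csf1r* kept the steadiest ratio to *Lyve1* (SD 0.69 to 0.72 on the log2 scale), whereas the steadiest among the 33 other members was *Flt4* at 1.18. The part of macrophages in the *Lyve1* values was not tested.

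*Pdpn*, the mucin podoplanin of lymphatic endothelium, fibroblasts and basal epithelium (10.7 CPM per kb), had 28.6, 16.1, 30.7, 21.7 and 15.9 CPM in CFA and 16.5, 27.7, 20.4, 7.22 and 8.72 CPM in HFA. It was lowest in T2314 and T2334, and highest in T1314. T2334, the highest library for *Prox1* and *Flt4*, was thus among its lowest. The log2 fold change was −0.49 (SE 0.37, adjusted p = 0.774). Of all listed genes, the fibroblast gene *Pdgfra* kept the steadiest ratio to *Pdpn* (SD 0.34), nearly level with the contractile mural gene *Mylk* (SD 0.35).

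**Figure D3:**
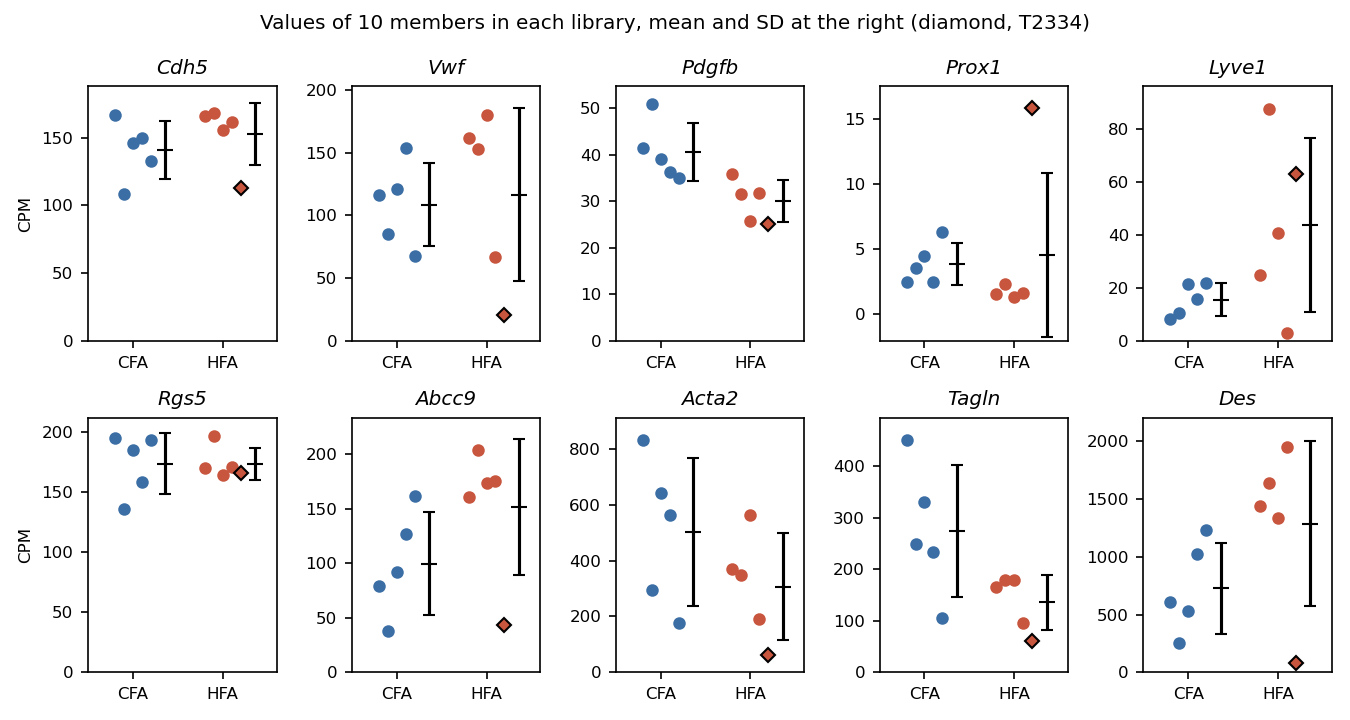
CPM of 10 genes in each library (points) by diet, with the mean and SD of 5 libraries at the right of each group and T2334 as a diamond. All 10 panels overlap between the diets, and T2334 is the lowest HFA library for *Cdh5*, *Vwf*, *Pdgfb*, *Abcc9*, *Acta2*, *Tagln* and *Des* and the highest for *Prox1*.

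Among the pericyte genes, *Rgs5* was the steadiest gene of the 34. *Rgs5* encodes a regulator of G protein signalling (38.1 CPM per kb) and had 194, 136, 184, 158 and 193 CPM in CFA and 169.7, 197, 164, 170.3 and 166 CPM in HFA. Only T1234 fell outside 158 to 197 CPM, and the log2 fold change was 0.00 (SE 0.13). *Cspg4*, the proteoglycan NG2, had 89.5, 80.2, 124, 129 and 117 CPM in CFA and 104, 76.2, 103, 102 and 44.1 CPM in HFA. None of the HFA values reached the CFA mean of 108 CPM, T2334 was lowest, and the log2 fold change was −0.33 (SE 0.24, adjusted p = 0.768). *Mcam*, the adhesion molecule CD146 of pericytes, smooth muscle and endothelium (54.2 CPM per kb), had 214.4, 155, 129, 235 and 98.9 CPM in CFA and 225, 301, 156, 204 and 99.7 CPM in HFA. T1334 and T2334 were lowest within their diets, and the log2 fold change was 0.24 (SE 0.31, adjusted p = 0.868).

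*Kcnj8* and *Abcc9* encode the pore (Kir6.1) and the sulfonylurea receptor (SUR2) of one potassium channel of mural cells, and lie next to each other on chromosome 6 (chr6:142564837-142571614 and chr6:142587862-142702315, both on the minus strand). *Abcc9* is also used in skeletal and heart muscle. Their promoters are shown because these neighbours, often read as a pair of pericyte markers, differed in how they varied. The sequences are RefSeq promoter windows of GRCm38.p6 (chr6:142571615-142571864 for *Kcnj8*, 250 bases ending at the start site, and chr6:142702316-142702524 for *Abcc9*, 209 bases ending 41 bases before it, where the annotated gene begins), written 5′ to 3′ on the minus strand, with motif matches in capitals.
Kcnj8: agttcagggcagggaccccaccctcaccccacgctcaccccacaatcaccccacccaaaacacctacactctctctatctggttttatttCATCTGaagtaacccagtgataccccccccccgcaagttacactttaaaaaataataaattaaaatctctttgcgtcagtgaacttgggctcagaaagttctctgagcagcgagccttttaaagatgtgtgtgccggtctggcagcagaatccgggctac
Abcc9: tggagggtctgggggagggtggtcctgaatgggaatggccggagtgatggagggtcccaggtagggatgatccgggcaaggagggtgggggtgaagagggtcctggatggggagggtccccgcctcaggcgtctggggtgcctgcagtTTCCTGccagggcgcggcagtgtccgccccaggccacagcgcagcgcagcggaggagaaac
The search was for 4 motifs on both strands, and 2 matches were found. *Kcnj8* held the E-box form CATCTG at 160 bases upstream of the start site. *Abcc9* held CAGGAA, which contains the core of ETS factor sites, at 102 bases upstream, where it reads TTCCTG on the strand shown. Across 32851 promoters, windows of 209 bases held the first of these in 12.4% and the second in 21.8%. The E-box form CAGCTG, present in 10.8%, and the CArG box of serum response factor, present in 1.22%, had no match in either window.

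*Kcnj8* had 9.61, 6.91, 13, 12.6 and 10.5 CPM in CFA and 16.3, 10.1, 10.4, 15.5 and 13.2 CPM in HFA, a 2.36-fold range (log2 fold change 0.31, SE 0.21, adjusted p = 0.760). *Abcc9* had 79.7, 37.7, 92.5, 127 and 161 CPM in CFA and 161, 204, 173, 175 and 43.9 CPM in HFA, a 5.41-fold range. In *Abcc9* the lowest libraries were T1234 and T2334, 3 HFA libraries exceeded every CFA library, and T2214 lay just below the highest of these. In *Kcnj8* T2334 was the third highest library. The ratio of *Abcc9* to *Kcnj8* therefore ran from 3.33 in T2334 to 20.2 in T2224. The log2 fold change of *Abcc9* was 0.60 (SE 0.44, adjusted p = 0.769).

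T1234 and T2334 were also the libraries with the least skeletal muscle RNA. The sum of 10 skeletal muscle markers was 8198 and 832 CPM there. The remaining CFA libraries had 21249 to 50601 CPM and the remaining HFA libraries 52241 to 66879 CPM. The ratio of *Abcc9* to the skeletal muscle actin *Acta1* was 0.196 in T2334, against 0.0116 to 0.0233 in all other libraries. Without the 3 libraries T1234, T1334 and T2334, *Abcc9* had a log2 fold change of 0.84 (SE 0.17) and an adjusted p of 0.0453 by the quasi-likelihood test, the 1 gene of the 34 to pass there, beside 2.98% of all genes. At an unadjusted p below 0.05, 8 of the 34 passed in that fit, beside 23.4% of all genes. The muscle markers summed to 21249 to 40687 CPM in its 3 CFA libraries and to 52241 to 66879 CPM in its 4 HFA libraries. Over all 10 libraries and with the muscle markers as a covariate, the log2 fold change of *Abcc9* was 0.53 (SE 0.18, unadjusted p = 0.0156, adjusted p = 0.213), against 0.60 (SE 0.44) without it.

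The smooth muscle genes had the highest median SD of the 4 groups. *Acta2* (chr19:34241090-34255590), smooth muscle alpha-actin, had 829.8, 296, 641, 565 and 175 CPM in CFA and 369, 349, 564, 192 and 62.1 CPM in HFA. T1224 was highest and T2334 lowest, T1334 and T2314 were low as well, and both diets spanned most of the range. *Cnn1*, the actin-binding protein calponin, had 119, 37.3, 74.95, 81.2 and 22.5 CPM in CFA and 50.3, 45.7, 73.2, 24.1 and 8.34 CPM in HFA. *Myh11*, smooth muscle myosin heavy chain, had 354, 123, 316, 272 and 90.5 CPM in CFA and 235, 196, 280.1, 93.4 and 33.8 CPM in HFA. The order of libraries was nearly that of *Acta2* in both. While *Acta2* itself differed 13.4-fold, the ratio of *Acta2* to *Cnn1* stayed between 6.95 and 8.55, and that of *Myh11* to *Acta2* between 0.415 and 0.636. The log2 fold changes of *Acta2*, *Cnn1* and *Myh11* were −0.71 (SE 0.56), −0.74 (SE 0.57) and −0.46 (SE 0.55), with adjusted p of 0.784, 0.776 and 0.858.

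*Tagln* (chr9:45929619-45936058), the actin-binding protein transgelin, departed from these 3. It had 451, 249, 329.8, 234.4 and 105 CPM in CFA and 165, 178, 178, 96.4 and 61.2 CPM in HFA. All 5 HFA libraries lay below the CFA mean, and the groups overlapped only through T1334, the lowest CFA library, which lay below 3 of the HFA libraries. The means were 274 ± 128 and 136 ± 53.8 CPM (SD, n = 5 each). This gave a log2 fold change of −1.01 (SE 0.40), with an unadjusted p of 0.0283 and an adjusted p of 0.655 by the quasi-likelihood test, and ran from −1.22 without T1334 to −0.80 without T1224. With the mean of luminal and basal epithelial markers as a covariate it was −0.27 (SE 0.22, unadjusted p = 0.255). The ratio of *Tagln* to *Acta2* ran from 0.316 in T2234 to 0.985 in T2334. Of all listed genes, the basal epithelial laminin gene *Lamb3* kept the steadiest ratio to *Tagln*, with an SD of 0.12 on the log2 scale, against 0.47 for *Acta2*. In the annotation, 67.9% of the exon bases of *Tagln* also belong to other genes (*Pcsk7* and *Gm48529*), and reads that fall on more than 1 gene were not counted, so its level is uncertain. Of the other 33 members, *Sox17* shared most, with 16.8%.

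Basal epithelial markers were low in the libraries in which *Acta2*, *Cnn1*, *Myh11* and *Tagln* were low. The sum of 8 basal markers was 295, 311 and 168 CPM in T1334, T2314 and T2334, against 398 to 1013 CPM in the other 7. The basal keratin *Krt14* had 150.1, 115, 116, 83.3 and 28.3 CPM in CFA and 69.0, 53.8, 62.4, 43.9 and 8.78 CPM in HFA, and the ratio of *Acta2* to *Krt14* ran from 2.57 (T1234) to 9.03 (T2234). Myoepithelial cells make both *Acta2* and *Krt14*, so these genes do not separate vessel walls from ducts. With the mean of luminal and basal markers as a covariate, the median log2 fold change of the 5 smooth muscle genes was 0.10, against −0.71 without it. How much of the smooth muscle values came from myoepithelium was not tested.

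*Des* (chr1:75360329-75368579), the intermediate filament desmin of all muscle types and of pericytes, had the highest level of the 34 (268 CPM per kb) and an order of its own. It had 609, 250.2, 533, 1019 and 1229.6 CPM in CFA and 1438, 1639, 1333.9, 1944 and 77.3 CPM in HFA. In 4 of the 5 HFA libraries it exceeded every CFA library, and T2334 was lowest of all. For *Des* the log2 fold change was 0.82 (SE 0.68, adjusted p = 0.792), and 1.08 (SE 0.39, adjusted p = 0.132) without T2334. The ratio of *Des* to the skeletal muscle actin *Acta1* stayed between 0.102 and 0.154 in 9 libraries, over which *Acta1* ran from 1621 to 15092 CPM, and was 0.346 in T2334, where *Acta1* had 223.9 CPM. With the muscle markers as a covariate, the log2 fold change of *Des* was 0.39 (SE 0.12, unadjusted p = 0.00983, adjusted p = 0.192).

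**Figure D4:**
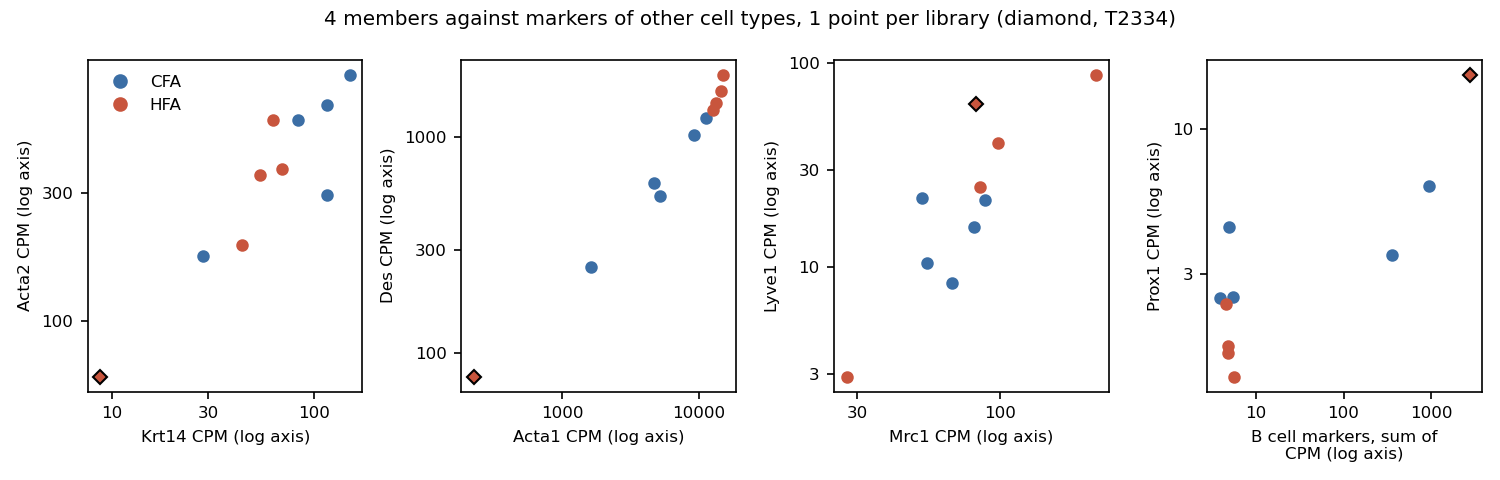
CPM of *Acta2*, *Des*, *Lyve1* and *Prox1* (log axes) against a marker of basal epithelium (*Krt14*), of skeletal muscle (*Acta1*), of macrophages (*Mrc1*) and the summed B cell markers of the same library, 1 point per library and T2334 as a diamond. *Des* follows *Acta1* closely in both diets, and *Prox1* is highest in T2334, where B cell markers are highest.

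**Figure D5:**
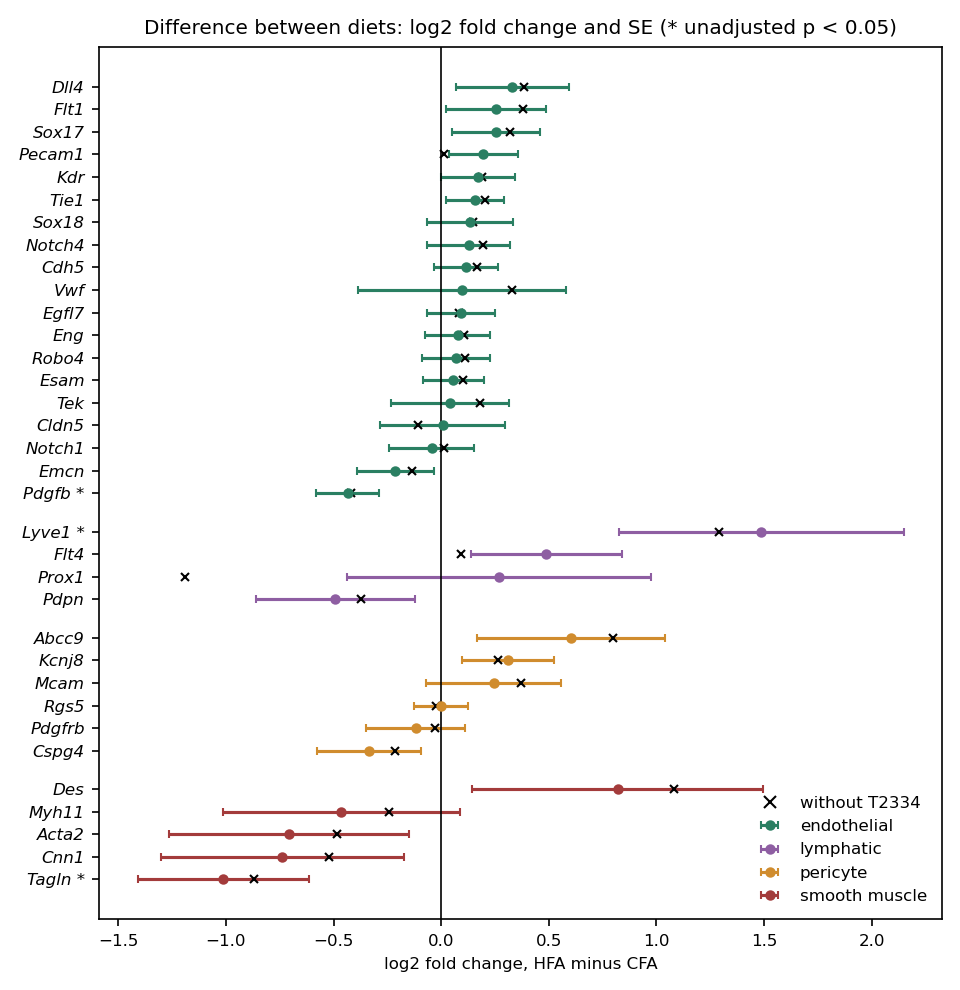
Log2 fold change of HFA minus CFA for each gene (points) with its SE (bars), the value without T2334 (crosses), and a star where the unadjusted p was below 0.05. Of the 19 endothelial genes, 16 lie above 0 by at most 0.33, while *Lyve1* (1.49) and *Tagln* (−1.01) are the farthest from 0.

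Across the diets the groups of genes were described by their medians, beside a median of 0.06 for all genes tested, 60.0% of which were above 0. These were 0.10 in log2 fold change for the endothelial genes (16 of 19 above 0), 0.38 for the lymphatic genes (3 of 4, and −0.14 with 2 of 4 without T2334), 0.12 for the pericyte genes (4 of 6) and −0.71 for the smooth muscle genes (1 of 5, *Des*). Upper-quartile scaling moved the median of all genes to −0.00 and put 20 of the 34 above 0 in place of 24. The count of 24 also fell to 15 without T1234 and rose to 27 with the epithelial covariate. The title digits hold a number that the labels do not explain, 2 or 3 in second place. Within the 5 libraries whose digit is 2 (2 CFA, 3 HFA), *Lyve1*, *Abcc9* and *Des* were higher in HFA at adjusted p of 0.0415, 0.0365 and 0.0435 by the quasi-likelihood test, beside 9.12% of all genes. In those 5 the skeletal muscle markers summed to 21249 and 8198 CPM in CFA and to 56555, 62162 and 52241 CPM in HFA, without overlap, and 9 of the 9 muscle markers tested were higher in HFA at an unadjusted p below 0.05. Macrophage markers there summed to 325 and 261 CPM in CFA and to 375, 945 and 487 CPM in HFA. Other marker lists differed there too, beside 30.7% of all genes at an unadjusted p below 0.05. At that threshold, 5 of 8 basal, 4 of 8 luminal and 7 of 7 T cell markers tested were lower in HFA. Of 6 Schwann cell markers 5 were higher and 1 lower, and 2 of 6 brown fat markers were higher. T1234, 1 of the 2 CFA libraries there, is among those with lymphocyte RNA. The part of all these in the values within digit 2 was not tested. Within the 5 libraries whose digit is 3 (3 CFA, 2 HFA), 0 of the 34 passed the adjusted threshold, as did 0 of all 16390 genes tested. The log2 fold changes of *Lyve1*, *Abcc9* and *Des* were 0.64 (SE 1.10), −0.29 (SE 0.63) and 0.05 (SE 1.24) there. At an unadjusted p below 0.05, 3 of the 34 passed there, *Pdpn*, *Pdgfrb* and *Tagln*, all lower in HFA, beside 3.07% of all genes. Over all 10 libraries, 6 brown fat markers summed to 88.8 to 673 CPM in CFA and 190.0 to 2006 CPM in HFA.

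Further genes of the same biology were read from lists. Of 22 other endothelial genes, 17 had a log2 fold change above 0, beside 60.0% of all genes. The adjusted threshold was passed by 0 of them, and 1 had an unadjusted p below 0.05, beside 7.36% of all genes. This was *Rasip1*, a junction regulator, with 20.0 to 24.3 CPM in CFA and 25.4 to 28.1 CPM in HFA. All its HFA values were above all CFA values, as for 0.75% of all genes, with a log2 fold change of 0.27 (SE 0.11, adjusted p = 0.656). The most abundant of the list per length, *Cav1* of caveolae, had 635 to 1078 CPM in CFA and 535 to 1070 CPM in HFA.

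Of 15 ligands that act on vessels, 5 had an unadjusted p below 0.05 and all 5 were lower in HFA, beside 7.36% of all genes in either direction and 3.49% lower, while 0 passed the adjusted threshold. Without T2334, 6 of the 15 passed the unadjusted threshold, beside 25.8% of all genes. These were *Vegfa* and *Vegfb*, both higher, and 4 of the same 5, with *Apln* no longer among them. Of the 8 luminal and the 8 basal epithelial markers, 7 each had a log2 fold change below 0, with medians of −0.47 and −0.89, and their part in the ligand values was not tested. The lowest p was that of *Efnb2*, which encodes the arterial ligand ephrin-B2 and had 35.1, 32.0, 41.5, 18.9 and 19.1 CPM in CFA and 19.5, 15.1, 15.9, 16.7 and 12.98 CPM in HFA. The log2 fold change of *Efnb2* was −0.87 (SE 0.24, unadjusted p = 0.00413, adjusted p = 0.648), and T2214 in HFA overlapped the 2 lowest CFA libraries. The others were *Angpt2*, the context-dependent antagonist of Tie2 (−1.03, SE 0.39, adjusted p = 0.655), *Pgf*, a ligand of Flt1 (−0.74, SE 0.33, adjusted p = 0.670), *Apln*, a peptide of growing vessel tips (−0.58, SE 0.24, adjusted p = 0.656), and the Notch ligand *Jag1* (−0.41, SE 0.17, adjusted p = 0.663). None of these 5 was non-overlapping between diets, beside 0.243% of all genes with every HFA library below every CFA library. *Vegfa*, the main ligand of Kdr, had 101 to 148 CPM in CFA and 78.7 to 242 CPM in HFA (log2 fold change 0.50, SE 0.26, adjusted p = 0.688). Epithelium and fat also make several of these ligands.

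Among all genes tested, 7.36% had an unadjusted p below 0.05, and the counts that follow stand beside that share. Of 12 further receptors and targets, *Nrarp*, a Notch target, was the 1 at an unadjusted p below 0.05 (log2 fold change −0.78, SE 0.34, adjusted p = 0.670). Of 8 other lymphatic genes, 6 were tested and 2 were below 0.05. *Nrp2*, a co-receptor for VEGF-C, had 40.9, 31.4, 44.9, 39.4 and 44.3 CPM in CFA and 52.5, 51.6, 53.6, 50.7 and 67.6 CPM in HFA. All its HFA values were above all CFA values, as for 0.75% of all genes (log2 fold change 0.46, SE 0.13, unadjusted p = 0.00551, adjusted p = 0.648). *Gja1*, the gap junction protein connexin 43, was lower in HFA (−0.70, SE 0.25, adjusted p = 0.655) and is made by many cell types. *Ccl21a* was at 0 reads in all 10 libraries; it has near-identical copies, and reads with more than 1 alignment, 28.8% to 33.9% of each library, were not counted. Of 14 other mural genes, 0 were below an unadjusted p of 0.05. *Synpo2*, a muscle actin-bundling protein, kept a ratio to *Abcc9* with an SD of 0.12 on the log2 scale, the steadiest of all listed genes. Of 6 genes of high endothelial venules, 4 were tested and *Enpp2*, which encodes the lysophospholipase autotaxin and is abundant in fat, was higher in HFA (log2 fold change 0.49, SE 0.21, adjusted p = 0.661).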

How the data were processed

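Mammary RNA of 10 mice was used, 1 library per mouse. These are the libraries the paper kept after it removed 1 sample with poor reads and 1 outlier. Per the submitters' processing notes, the authors used TopHat2 2.0.14, Bowtie2 2.2.5 and HTSeq 0.6.1 with mm10 (GRCm38), and deposited whole-number read counts per Ensembl gene without normalization. Groups were taken from the labels. Reads on no gene were 3.43% to 5.47% and on more than 1 gene 3.52% to 4.29% of the counted lines, and stayed out of the library sizes. Symbols, positions and exon lengths came from GENCODE M21, which named 46488 of the 46983 identifiers and all 34 members. The exon length is the union of a gene's exons.

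HFA was compared with CFA in edgeR 4.0.16 (R 4.3.3) with filterByExpr, TMM scaling and the quasi-likelihood test, without covariates, since the cage that the study modelled is not in the labels. The threshold was 0.05 after Benjamini-Hochberg adjustment over 15610 genes. The SE is the log2 fold change over the root of F. Log2 CPM used a prior count of 2. On counts simulated for this comparison (5 against 5), the test recovered 176 of 200 genes changed 4-fold with 6 false calls among 15367 genes, and 13 of 200 changed 2-fold with 0 among 15392. The simulation gave each gene the spread typical of its level and held no outlying library. Recovery for genes with a wider spread was not tested, and the lymphatic and smooth muscle genes had larger median SDs than all genes. The p-values measure the spread between mice.

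Other settings tried were RLE or upper-quartile size factors, no filter on low counts, a filter of CPM over 1 (5 or more libraries), edgeR's likelihood ratio test, DESeq2 1.42.0, voom of limma 3.58.1 (also with quality weights), the title's second digit as a covariate or a split, a block by its remaining digits, marker covariates, and leaving out each library. Values in each library are given, within each of the 4 cell types, for the 4 genes of highest CPM per kb, the 3 of smallest p and the 2 of widest range. Of other lists, genes at an unadjusted p below 0.05 and at most 3 abundant ones are named. *Synpo2*, *Lamb3*, *Pdgfra*, *Dcn*, *Ednra*, *Mylk*, the macrophage genes, *Krt14*, *Acta1*, *Mrc1* and *Glycam1* were named after their values were seen. The steadiness of a ratio is the SD over 10 libraries of the difference between 2 genes in log2 CPM. The members and lists were chosen with earlier results of these data known. Promoters of members were looked up in a RefSeq table of GRCm38.p6, and protein sequences were not used here.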

Additional observations from a re-analysis of the deposited data

Results flagged for a closer look

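In 68 groups of 5 values (34 genes in each diet), 4 had an extreme library whose gap to its neighbour, as a share of the group's range, exceeded 0.71, and chance alone marks about 1 in 20 groups. All 4 were in HFA. *Prox1* was highest in T2334 (15.8 CPM, share 0.927), *Cdh5* lowest in T2334 (112 CPM, share 0.769) and *Abcc9* lowest in T2334 (43.9 CPM, share 0.731). *Rgs5* was highest in T2224 (197 CPM, share 0.812), although its HFA values spanned only 164 to 197 CPM. T2334 was also the library with the most lymphocyte and the least skeletal muscle and basal epithelial RNA, and the part of these in its values was not tested.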

How the results depend on the processing

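Leaving out each library in turn, the genes past the adjusted threshold numbered 0 to 6 (6 without T2334), the members past it 0 in each case, and the members at an unadjusted p below 0.05 ranged from 1 (without T1224, and without T1314) to 6 (without T2334). The medians of log2 fold change ran from −0.01 to 0.15 (endothelial), −0.14 to 0.56 (lymphatic), −0.00 to 0.18 (pericyte) and −1.04 to −0.46 (smooth muscle). Genes past the adjusted threshold numbered 33 under the likelihood ratio test, 60 under DESeq2, 1037 under limma voom with quality weights, 2 with the B and T cell covariate, 1418 within title digit 2, 1 over the 8 libraries whose other digits match, and 469 without T1234, T1334 and T2334, both of the last chosen after seeing the data. Members past it numbered 3 within title digit 2 and 1 without those 3 libraries. Members at an unadjusted p below 0.05 numbered 8 by voom with quality weights (30.1% of all genes), 8 with the B and T cell covariate (14.5%), 5 with the muscle covariate (16.4%), 1 with the epithelial covariate (8.28%), 8 within title digit 2 (30.7%) and 8 without the 3 libraries (23.4%). The 8 are 23.5% of the 34. Within title digit 3 the medians were −0.28 (endothelial), −0.23 (pericyte) and −1.91 (smooth muscle), and 25 of 34 members were below 0. The cause of these shifts was not tested. *Pdgfb* was below 0 in all 28 fits and at an unadjusted p below 0.05 in 26, *Tagln* in 24 and *Lyve1* in 10. The replicate block over 4 pairs of libraries gave 0 genes and 0 members past the adjusted threshold. At an unadjusted p below 0.05 it gave 2 members, beside 6.77% of all genes. Deviations of same-numbered libraries correlated with r from −0.294 to 0.410. With 4 pairs and no comparison to other pairings, whether the numbers pair the libraries cannot be told. Of 918 values of single members under 27 alternatives, 888 moved by less than 1 SD between libraries within a diet. That margin is wide for the variable genes and lets a change of sign pass. Only 9 of the 34 kept the sign of their log2 fold change in all settings, and 15 changed sign within title digit 3. Depth limited *Prox1*, at 9 reads in its lowest library, and the simulated 2-fold changes were mostly not recovered. Genes with near copies and *Tagln*, which shares exons, are uncertain. DESeq2 gave 1 member no adjusted p.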
